A study of Mus musculus with 16 samples.

Results

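The 36 genes described here are a mouse hypoxia and glycolysis set, chosen by gene symbol. The set holds 4 genes of oxygen sensing, 16 other targets of the hypoxia-inducible factors (HIF) and 16 glycolytic genes, which run from the hexokinases to lactate dehydrogenase and include the phosphofructokinase regulators Pfkfb3 and Pfkfb4. The members were picked out of the tables by symbol, and the list itself was drawn up with earlier results of these data known. All 36 were listed in the TDM culture table and in the TDMa tumour table, and 35 in the TDMa culture table, which did not list Car12. The tables held 13143, 14933 and 13284 genes in that order. Aldoa stood under a pair of identifiers, of which ENSMUSG00000030695 is used.

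The study sequenced RNA from 16 libraries of B16F10, a pigmented mouse melanoma line, and its title names demethylation and activation of NLRC5 together with MHC class I. Cells labelled B16F10-TDMa or B16F10-TDM carried a guide RNA against Nlrc5 (sgNlrc5) or a scramble guide (sgScramble). There were 4 libraries per guide from TDMa tumours, 2 per guide from TDMa culture and 2 per guide from TDM culture. The labels name the growth medium as DMEM with fetal bovine serum and give no host mouse for the tumours, no age and no oxygen level. They do not say what TDM and TDMa stand for, whether each line is 1 clone, or whether replicates were separate cultures or animals. The p-values below therefore measure the spread between these samples, which may be technical.

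When oxygen falls, the HIF alpha subunits Hif1a and Epas1 escape hydroxylation by the prolyl hydroxylases Egln1 and Egln3 and are no longer marked for degradation. With their partner Arnt they then bind hypoxia response elements near genes that carry glucose through glycolysis, restrain entry of pyruvate into mitochondria, remove mitochondria, build vessels, buffer pH and modify collagen. Much of this control acts on the HIF protein, which RNA sequencing does not measure.

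The values are normalised counts, meaning reads divided by a library's size factor within 1 table. Between 12183889 and 16390886 reads per library could be recovered from them, over the listed genes. Nlrc5, the target, had 3434 to 4381 normalised counts in sgNlrc5 tumours, against 257 to 837 in sgScramble tumours. In TDMa culture it had 3142 to 3146 with sgNlrc5, against 242 to 254 with sgScramble, and in TDM culture 57.4 to 78.6, against 12.7 to 22.9. All 8 melanocyte lineage markers, Mitf and Pmel among them, were listed in each table. In culture, 0 of 8 T cell markers were listed in the TDMa table and 1 of 8 (Cd3d) in the TDM table, while Cd68 was the 1 of 7 macrophage markers listed in either.

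HIF-regulated genes are known for hypoxia response elements, so promoter windows from 250 bases before to 50 bases after the annotated start were searched for the core of the hypoxia response element, ACGTG or GCGTG on either strand. A reverse-strand core reads CACGT or CACGC, and ACGTG overlaps the E-box CACGTG, which other factors bind and which was counted once. RefSeq windows (GRCm38.p6) were at hand for 32 of the 36 genes. The core was present in 29 of these 32 genes (90.6%), against 46.7% of all 27018 genes with a window. It was present in 76.6% of the 47 windows of these genes and in 43.8% of all 32841 windows. The shares over all genes were not matched to this set for base composition, expression or windows per gene. By role, 3 of 3 oxygen sensing genes, 12 of 13 other HIF targets and 14 of 16 glycolytic genes held it. CACGTG itself was in 8.51% of the windows of these genes and in 7.15% of all windows. A match is a stretch of letters, not evidence of binding, and no match says only that these letters are missing from the window.

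Shown here are the windows of the 3 genes that fell in TDM culture (Bnip3, Ero1a and Pfkp), of Pdk1, which had the largest change of these genes in TDMa culture, of Pgk1, which had the smallest p there, and of Egln3, which fell there. They are written 5′ to 3′ on the gene's strand with cores in capitals. Bnip3 lies at chr7:138909457-138909756 (minus strand), Ero1a at chr14:45318523-45318822 (minus), Pfkp at chr13:6648722-6649021 (minus), Pdk1 at chr2:71872974-71873273 (plus), Pgk1 at chrX:106186850-106187149 (plus) and Egln3 at chr12:54203825-54204124 (minus).
Bnip3: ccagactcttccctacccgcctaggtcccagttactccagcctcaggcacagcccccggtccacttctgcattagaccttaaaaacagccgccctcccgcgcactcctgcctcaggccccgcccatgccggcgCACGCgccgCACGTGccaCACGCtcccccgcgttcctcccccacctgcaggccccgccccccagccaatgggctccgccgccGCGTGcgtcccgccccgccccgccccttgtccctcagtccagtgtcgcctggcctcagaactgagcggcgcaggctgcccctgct
Ero1a: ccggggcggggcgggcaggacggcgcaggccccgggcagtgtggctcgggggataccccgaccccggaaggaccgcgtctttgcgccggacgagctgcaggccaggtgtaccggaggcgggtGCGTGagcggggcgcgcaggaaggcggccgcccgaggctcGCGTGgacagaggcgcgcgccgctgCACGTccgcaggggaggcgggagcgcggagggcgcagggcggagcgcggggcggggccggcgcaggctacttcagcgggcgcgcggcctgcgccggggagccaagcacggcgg
Pfkp: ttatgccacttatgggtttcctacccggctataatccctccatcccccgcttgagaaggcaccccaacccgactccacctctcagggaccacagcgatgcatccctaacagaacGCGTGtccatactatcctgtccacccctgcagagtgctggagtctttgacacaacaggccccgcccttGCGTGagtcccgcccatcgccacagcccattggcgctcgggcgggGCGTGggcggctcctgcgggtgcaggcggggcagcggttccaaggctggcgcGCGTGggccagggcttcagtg
Pdk1: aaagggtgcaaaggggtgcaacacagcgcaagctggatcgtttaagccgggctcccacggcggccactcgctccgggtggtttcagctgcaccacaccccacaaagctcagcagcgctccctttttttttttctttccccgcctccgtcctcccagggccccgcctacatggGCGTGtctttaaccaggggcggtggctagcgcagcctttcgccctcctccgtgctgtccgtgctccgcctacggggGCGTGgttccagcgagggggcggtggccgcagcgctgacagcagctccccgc
Pgk1: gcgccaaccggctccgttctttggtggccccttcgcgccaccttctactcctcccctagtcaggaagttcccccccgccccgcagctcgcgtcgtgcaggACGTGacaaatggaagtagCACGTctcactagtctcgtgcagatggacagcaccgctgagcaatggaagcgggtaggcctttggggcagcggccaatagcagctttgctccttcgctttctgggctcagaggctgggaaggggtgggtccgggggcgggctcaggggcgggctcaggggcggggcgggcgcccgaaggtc
Egln3: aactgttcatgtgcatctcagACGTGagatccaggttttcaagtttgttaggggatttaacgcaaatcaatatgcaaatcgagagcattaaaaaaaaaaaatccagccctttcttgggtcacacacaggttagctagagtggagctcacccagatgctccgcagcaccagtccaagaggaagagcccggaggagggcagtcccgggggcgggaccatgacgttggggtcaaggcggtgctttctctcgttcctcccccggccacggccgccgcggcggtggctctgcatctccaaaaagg
The number of cores was 4 in Bnip3, 3 in Ero1a, 4 in Pfkp, 2 in Pdk1, 2 in Pgk1 and 1 in Egln3. One of the Bnip3 cores is a CACGTG palindrome. The first of a pair of Pdk1 windows is shown, and the other held no core. Vegfa, Mxi1, Kdm3a, Hk1, Aldoa and Pkm also have a window or windows without a core beside a window that holds it. The single windows of Tpi1, Gpi1 and Car12 hold none.

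In cultured TDM cells the guide against Nlrc5 went with slightly lower levels of a few of these genes. Of 35 tested, 0 rose and 3 fell at an adjusted p under 0.05 (limma, Benjamini-Hochberg over all genes tested), where 0.284% of all genes tested rose and 0.234% fell. A gene was tested if its mean normalised count was at least 10, which left out Car12. The median log2 fold change of the 35 was -0.13, against 0.00033 over all genes tested, where changes are on the log2(normalised count + 1) scale. At an unadjusted p under 0.05 there were 18 lower and 1 higher of the 35, where 4.65% of all genes tested were lower and 4.40% higher, and a voom fit on recovered reads also called 0 higher.

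Bnip3, a mitophagy receptor on the outer mitochondrial membrane, had 457 and 340.0 normalised counts in sgNlrc5 cells, against 567 and 652 in sgScramble cells (log2 fold change -0.63 ± 0.12, adjusted p = 0.021). Ero1a, the oxidase that drives disulfide formation in the endoplasmic reticulum, had 6035 and 6520.1 in sgNlrc5 cells, against 7398 and 8319 in sgScramble cells (log2 fold change -0.32 ± 0.055, adjusted p = 0.0083). Pfkp, the platelet-type phosphofructokinase, had 3355 and 3699.9 in sgNlrc5 cells, against 4189.6 and 4457 in sgScramble cells (log2 fold change -0.29 ± 0.054, adjusted p = 0.015). In each of these 3 genes both sgNlrc5 libraries lay below both sgScramble libraries, as in 2316 of all 11989 genes tested. The calls were fragile. All 3 ended without the intensity trend (adjusted p from 0.56 to 0.58). Bnip3 missed the threshold after quantile normalisation (-0.62, adjusted p = 0.12) and when sgNlrc5 replicate 2 was left out (-0.41, adjusted p = 0.074). Ero1a and Pfkp missed it when sgScramble replicate 2 was left out (-0.24 and -0.25, adjusted p = 0.14 and 0.13). Leaving out 1 library at a time gave 1 to 7 lower genes, with 1 when sgScramble replicate 2 was dropped and 7 when sgScramble replicate 1 was.

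The next genes in order of p missed the threshold. Egln3, a prolyl hydroxylase that is itself a HIF target, had 145 and 113 normalised counts in sgNlrc5 cells, against 191 and 259 in sgScramble cells (log2 fold change -0.79 ± 0.17, adjusted p = 0.053). Hk2, the inducible hexokinase, was at -0.24 ± 0.053 (adjusted p = 0.055), and the stress-induced gene Ndrg1 at -0.42 ± 0.10 (adjusted p = 0.10). Adm, which encodes the vasodilator peptide adrenomedullin, stood out with a positive value: 74.2 and 90.0 in sgNlrc5 cells, against 45.9 and 46.7 in sgScramble cells (log2 fold change 0.81 ± 0.23, adjusted p = 0.20). Car12, a membrane carbonic anhydrase below the minimum for testing, had 15.7 and 18.9 normalised counts with sgNlrc5, against 0 and 2.12 with sgScramble. With no minimum it was not called (adjusted p = 0.071). When sgScramble replicate 1 or 2 was left out it passed the minimum (log2 fold change 2.55 and 4.19), but only through the sgNlrc5 libraries.

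Glycolytic genes in TDM culture had negative values in 16 of 16, also with equal sums and in the voom fit (15 of 16 after quantile normalisation, with Gapdh at 0), though most were small. Of all 11989 genes tested, 5977 were negative. The 16 genes were read in the same 2 libraries per guide and are not independent observations. Apart from Pfkp they lay between -0.28 (Aldoc, the brain-type aldolase) and -0.02 (Gapdh, glyceraldehyde-3-phosphate dehydrogenase), and none of those 15 passed. Pgk1, Ldha and Pkm were at -0.09, -0.13 and -0.08. Together the 16 took 2.03% and 1.99% of reads in sgNlrc5 libraries, against 2.07% and 2.17% in sgScramble libraries.

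**Figure D1:**
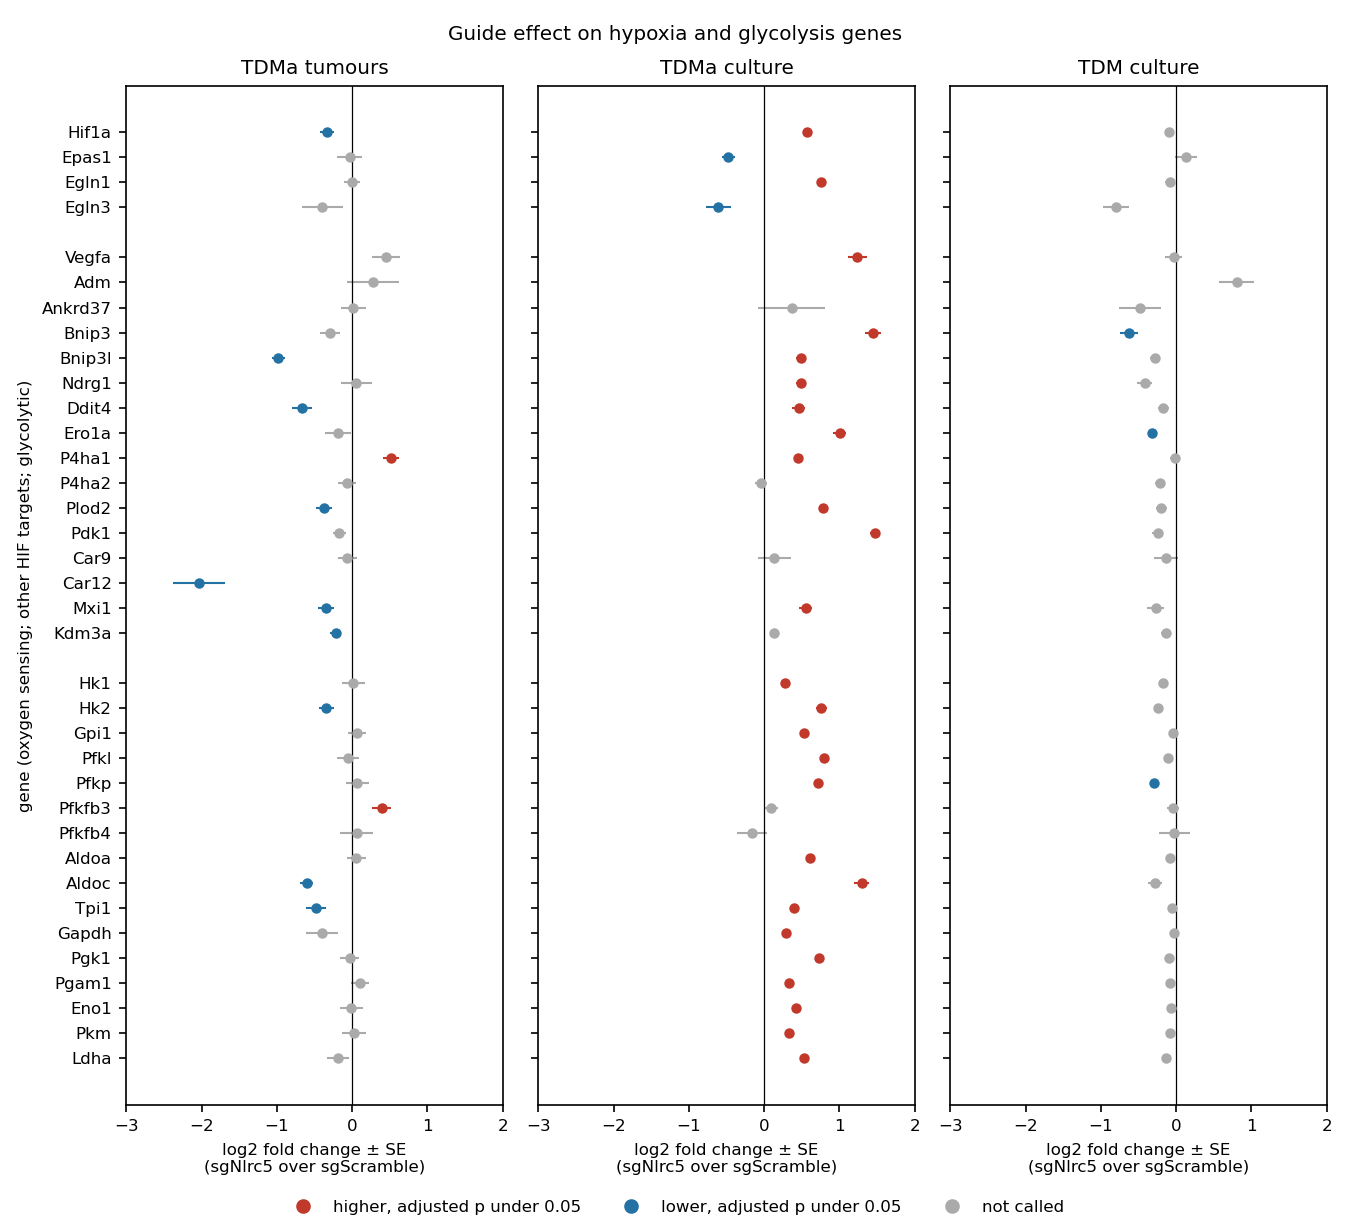
Log2 fold change of each gene, sgNlrc5 over sgScramble (x axis), by gene (y axis, grouped as oxygen sensing, other HIF targets and glycolytic genes), with limma standard errors, in TDMa tumours, TDMa culture and TDM culture. Red and blue points passed an adjusted p of 0.05: 2 higher and 10 lower in tumours, 26 higher and 2 lower in TDMa culture, and 3 lower in TDM culture.

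In cultured TDMa cells most of the set rose with sgNlrc5. Of 34 genes tested, 26 rose and 2 fell, where 17.3% of all genes tested rose and 16.9% fell (34.2% in either direction). The rise covered 14 of 16 glycolytic genes, 10 of 14 other HIF targets and 2 of 4 oxygen sensing genes. The median log2 fold change of the 34 was 0.48, against -0.00064 over all genes tested. With equal sums of normalised counts in place of the authors' size factors, 38.8% of the genes called over the whole table were higher, against 50.5%, and the counts for this set were still 26 higher and 2 lower. Of the 8 melanocyte markers 7 also rose, and they summed to 214547 to 215527 normalised counts in sgNlrc5 cells, against 155624 to 157377 in sgScramble cells. Their part in the result was not tested.

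Among oxygen sensing genes the alpha subunits went apart. Hif1a had 3250.2 and 3383 normalised counts in sgNlrc5 cells, against 2227 and 2245 in sgScramble cells (log2 fold change 0.57 ± 0.040, adjusted p = 3.0e-09). Epas1, encoding HIF-2 alpha, had 359.8 and 381 with sgNlrc5, against 501 and 531 with sgScramble (log2 fold change -0.48 ± 0.086, adjusted p = 2.6e-04). The hydroxylases also split: Egln1, the main HIF prolyl hydroxylase, rose by 0.76 ± 0.062 (adjusted p = 1.9e-08). Egln3 had 109 and 101 with sgNlrc5, against 144 and 179 with sgScramble (log2 fold change -0.61 ± 0.17, adjusted p = 0.0082). In all 4 genes the libraries of the 2 guides did not overlap. Of all 12138 genes tested, 4046 had both sgNlrc5 libraries above both sgScramble libraries and 4003 had both below. Such separation is thus common with 2 libraries per guide. The Egln3 call ended without sgScramble replicate 2 (-0.45, adjusted p = 0.15).

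The largest rises of the set were in Pdk1 and Bnip3, HIF targets that act on mitochondria. Pdk1, the kinase that inhibits pyruvate dehydrogenase, had 1422 and 1366 normalised counts in sgNlrc5 cells, against 497 and 509 in sgScramble cells (log2 fold change 1.47 ± 0.062, adjusted p = 2.1e-12). Bnip3 had 909.5 and 689.8 with sgNlrc5, against 297 and 283 with sgScramble (log2 fold change 1.45 ± 0.11, adjusted p = 4.0e-09). Its paralogue Bnip3l, also a mitophagy receptor, rose by 0.48 ± 0.056 (adjusted p = 1.8e-06). Vegfa, the vessel growth factor, rose by 1.24 ± 0.12 and Ero1a by 1.00 ± 0.085 (adjusted p = 2.7e-07 and 3.3e-08). Both sgNlrc5 libraries exceeded both sgScramble libraries in each of these 5 genes, as in 4046 of all 12138 genes tested. The sgNlrc5 pair was itself wide for Ero1a, at 4136 and 3030.4.

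Collagen-modifying targets were mixed. Plod2, a lysyl hydroxylase, had 2305 and 2083 normalised counts with sgNlrc5, against 1234 and 1314 with sgScramble (log2 fold change 0.78 ± 0.054, adjusted p = 2.4e-09). P4ha1, a prolyl 4-hydroxylase subunit, rose by 0.45 ± 0.055 (adjusted p = 4.1e-06), while its paralogue P4ha2 was at -0.05 ± 0.078 (adjusted p = 0.69). Ndrg1 rose by 0.49, the mTORC1 inhibitor gene Ddit4 by 0.46 and the Myc antagonist gene Mxi1 by 0.55. Not called were the histone demethylase gene Kdm3a (0.13 ± 0.052), Ankrd37 (0.37 ± 0.45) and Car9, a membrane carbonic anhydrase and widely used hypoxia marker (0.14 ± 0.22). Adm, below the minimum for testing, had 21.4 and 6.78 normalised counts with sgNlrc5, against 0.957 and 2.85 with sgScramble. With no minimum it was called higher (adjusted p = 0.021), and when sgScramble replicate 1 was left out it passed the minimum and was not called (adjusted p = 0.12).

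Glycolytic genes rose along most of the pathway in TDMa culture. Pgk1, which makes the first ATP of glycolysis, had 29159.7 and 28178 normalised counts in sgNlrc5 cells, against 16807 and 17666 in sgScramble cells (log2 fold change 0.73 ± 0.028, adjusted p = 5.2e-13). Aldoa, the muscle-type aldolase, had 26479.5 and 25901 with sgNlrc5, against 16898 and 17544 with sgScramble (log2 fold change 0.61 ± 0.026, adjusted p = 3.2e-12). Ldha, which turns pyruvate into lactate, had 43614 and 42136 with sgNlrc5, against 29038 and 30244 with sgScramble (log2 fold change 0.53 ± 0.026, adjusted p = 1.4e-11). These abundant genes moved by less than Pdk1 and Bnip3 and with a smaller spread between replicates.

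Pfkl, the liver-type phosphofructokinase, had 5098 and 4998 normalised counts with sgNlrc5, against 2752 and 3075 with sgScramble (log2 fold change 0.79 ± 0.044, adjusted p = 1.1e-10). Eno1, the main enolase, had 41389 and 40463 with sgNlrc5, against 30125 and 31071 with sgScramble (log2 fold change 0.42 ± 0.024, adjusted p = 1.8e-10). Gpi1, glucose-6-phosphate isomerase, had 12515 and 11876 with sgNlrc5, against 8305 and 8525 with sgScramble (log2 fold change 0.53 ± 0.031, adjusted p = 1.9e-10). In each, both sgNlrc5 libraries lay above both sgScramble libraries, as in 4046 of all 12138 genes tested. Tpi1, triosephosphate isomerase, had 22635 and 21922 with sgNlrc5, against 16872 and 16868 with sgScramble (log2 fold change 0.40 ± 0.026, adjusted p = 8.1e-10). Aldoc had 1209 and 942 with sgNlrc5, against 403 and 467 with sgScramble (log2 fold change 1.30 ± 0.097, adjusted p = 6.5e-09), the largest rise of the 16.

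The remaining enzymes that rose were Hk2 (0.76), Pfkp (0.72), Pkm (0.33), Pgam1 (0.33), Gapdh (0.30) and Hk1, the constitutive hexokinase (0.27). Pfkfb3 and Pfkfb4, which set the level of the phosphofructokinase activator fructose 2,6-bisphosphate, were not called (0.09 ± 0.091 and -0.16 ± 0.20). The 16 genes took 2.43% and 2.35% of reads in sgNlrc5 libraries, against 1.80% and 1.86% in sgScramble libraries. Without the intensity trend 8 calls ended, those of Ndrg1, Pgam1, Ddit4, Mxi1, Pkm, Egln3, Hk1 and Gapdh, with adjusted p from 0.050 to 0.11. Gapdh also lost its call after quantile normalisation, where its change was 0. Several of these enzymes, Gapdh, Eno1, Pgam1, Tpi1, Ldha and Aldoa among them, have near-identical retrocopies in the mouse genome. How the authors counted shared reads was not given in the sources used here, so their separate values are uncertain.

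**Figure D2:**
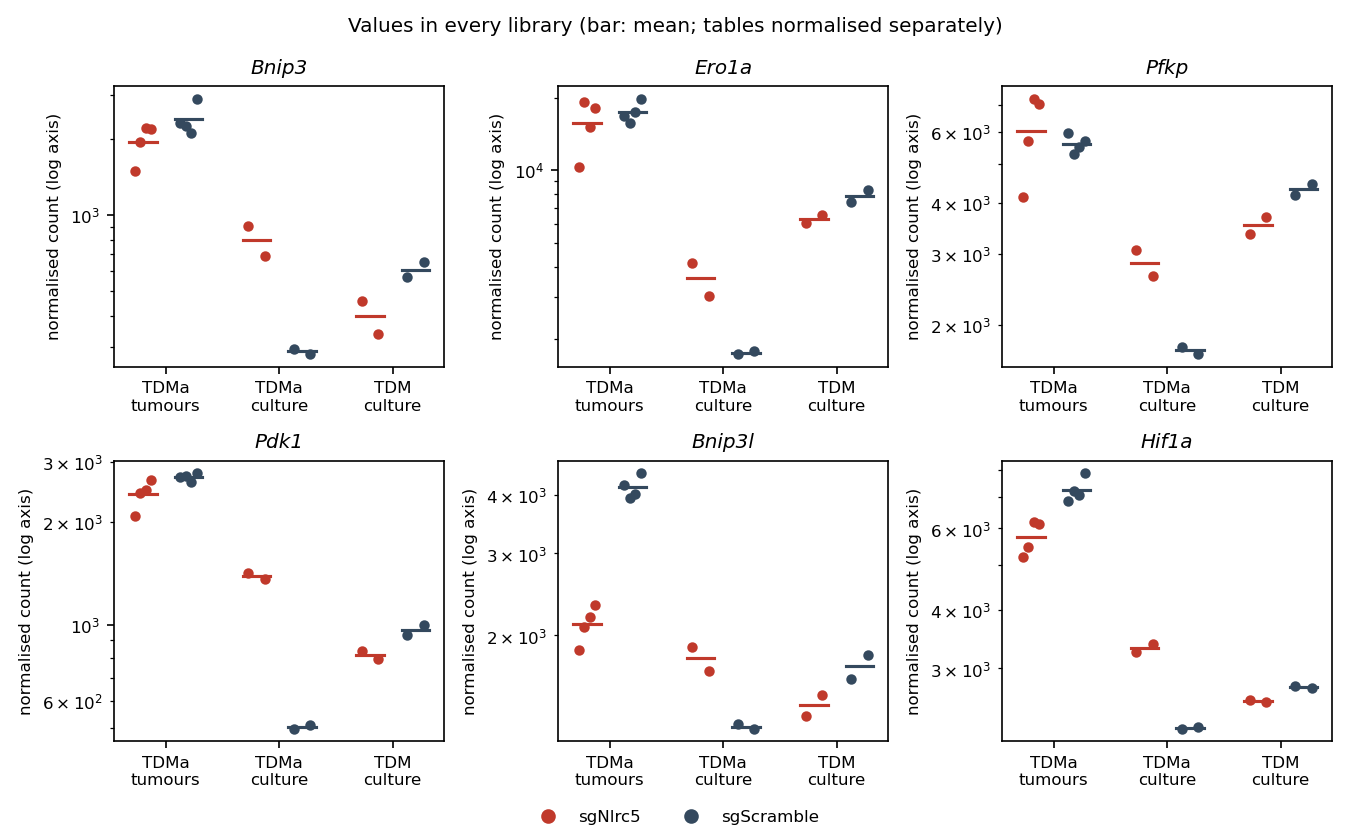
Normalised count (log axis) of 6 genes in every library of sgNlrc5 (red) and sgScramble (dark), in TDMa tumours, TDMa culture and TDM culture, with bars at group means. Levels compare within a table only. Bnip3 and Pdk1 lie higher with sgNlrc5 in TDMa culture, and Bnip3l and Hif1a lie lower with sgNlrc5 in tumours.

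In TDMa tumours few of these genes rose and more fell. Of 36 tested, 2 rose and 10 fell, where 19.7% of all genes tested rose and 19.7% fell (39.4% in either direction), so the 12 called are a smaller share than in the whole table. The median log2 fold change was -0.058, against -0.010 over all genes tested. By role, 1 rose and 6 fell of 16 other HIF targets, 1 rose and 3 fell of 16 glycolytic genes, and 1 of 4 oxygen sensing genes fell. The share of all genes whose groups did not overlap was 18.1% higher and 19.1% lower, against 1 gene higher and 9 lower in this set.

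Bnip3l had 1860.1, 2086, 2196 and 2322 normalised counts in sgNlrc5 tumours, against 4208, 3952, 4020.3 and 4457 in sgScramble tumours (log2 fold change -0.98 ± 0.087, adjusted p = 2.3e-05). It was the clearest change of the set, with every sgNlrc5 tumour below every sgScramble tumour by a wide gap. Bnip3l also serves mitochondrial clearance in maturing red cells, and the 5 erythroid markers summed to 454 to 1176 in sgNlrc5 tumours, against 732 to 3364 in sgScramble tumours, with 1 of 5 lower. Their part in the result was not tested. Car12 had 17.0, 25.7, 40.7 and 68.3 normalised counts with sgNlrc5, against 177, 109, 146 and 135 with sgScramble (log2 fold change -2.03 ± 0.35, adjusted p = 9.7e-04). Its partner in pH control, Car9, stood at -0.06 ± 0.13 (adjusted p = 0.74).

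Ddit4 had 1029, 1246, 1535 and 1369 normalised counts in sgNlrc5 tumours, against 1778, 2048, 1869 and 2481 in sgScramble tumours (log2 fold change -0.66 ± 0.13, adjusted p = 0.0024). Hif1a had 5197, 5473, 6199.8 and 6141 with sgNlrc5, against 6868, 7205, 7064 and 7878 with sgScramble (log2 fold change -0.34 ± 0.090, adjusted p = 0.012). Neither gene's groups overlapped. Mxi1 had 625, 706, 826 and 863 with sgNlrc5, against 934, 889, 977 and 1021 with sgScramble (log2 fold change -0.35 ± 0.11, adjusted p = 0.023). Kdm3a had 1973, 2091, 2038 and 2109 with sgNlrc5, against 2203, 2440.4, 2470.4 and 2449 with sgScramble (log2 fold change -0.22 ± 0.074, adjusted p = 0.033). These last calls were near the threshold: Mxi1 was lost without any 1 of 4 libraries and Kdm3a without any 1 of 6, with adjusted p up to 0.061 and 0.092.

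Collagen-modifying targets went both ways in tumours. P4ha1 had 2838, 4154, 3183 and 3101 normalised counts with sgNlrc5, against 2218, 2239.9, 2338 and 2392 with sgScramble (log2 fold change 0.52 ± 0.11, adjusted p = 0.0032). Plod2 had 2606, 3791, 3165 and 3024 with sgNlrc5, against 3831, 3768, 4429 and 4150.1 with sgScramble (log2 fold change -0.37 ± 0.11, adjusted p = 0.019). Every sgNlrc5 tumour exceeded every sgScramble tumour for P4ha1, while 1 sgNlrc5 tumour overlapped the sgScramble range for Plod2, whose call ended without sgScramble replicate 3 (-0.33, adjusted p = 0.060).

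Of the glycolytic genes, Aldoc had 2863, 3208, 3752 and 3229 normalised counts in sgNlrc5 tumours, against 5118, 4886, 4832 and 4925 in sgScramble tumours (log2 fold change -0.60 ± 0.090, adjusted p = 4.1e-04). Tpi1 had 25386, 28373, 33831 and 30970.1 with sgNlrc5, against 41113, 39128, 38772 and 45489 with sgScramble (log2 fold change -0.48 ± 0.13, adjusted p = 0.013). Hk2 had 2979, 3369.6, 4134 and 3675 with sgNlrc5, against 4149, 4624, 4401 and 4639.6 with sgScramble (log2 fold change -0.34 ± 0.10, adjusted p = 0.020). None of these 3 overlapped between guides. The Hk2 call ended without sgScramble replicate 2 (-0.32, adjusted p = 0.055) and that of Tpi1 ended under the replicate block (adjusted p = 0.056). Pfkfb3 was the glycolytic gene that rose, with 496, 606, 782 and 723 in sgNlrc5 tumours, against 495, 499, 466 and 497 in sgScramble tumours (log2 fold change 0.39 ± 0.13, adjusted p = 0.031). Its groups overlapped, and it missed the threshold when sgNlrc5 replicate 3 or 4 or any 1 sgScramble library was dropped (adjusted p from 0.052 to 0.088).

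The other 12 glycolytic genes did not pass, and the median of the 16 was 0.0017, with a sign that depended on the scaling (-0.025 with equal sums and 0.015 in the voom fit). Gapdh was at -0.40 ± 0.21 (adjusted p = 0.16) and Ldha at -0.18 ± 0.15 (adjusted p = 0.35), while Pgk1, Pkm and Eno1 lay at -0.03, 0.03 and -0.01. Of the 5 genes with the largest rises in TDMa culture, Aldoc fell in tumours and the others were not called: Pdk1 was at -0.17 ± 0.086, Bnip3 at -0.30 ± 0.13, Ero1a at -0.19 ± 0.18 and Vegfa at 0.45 ± 0.18 (adjusted p = 0.13, 0.096, 0.43 and 0.074).

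The sgNlrc5 tumours were not alike. Glycolytic genes took 2.39%, 2.60%, 3.48% and 3.20% of reads in sgNlrc5 replicates 1 to 4, against 3.04% to 3.52% in sgScramble tumours. Mitochondrially encoded genes took 7.11%, 5.66%, 3.11% and 2.95% in the same sgNlrc5 tumours, against 2.65% to 5.12% in sgScramble tumours. Without sgNlrc5 replicates 1 and 2, a comparison added after the data were seen, 6 genes rose and 5 fell. These 2 tumours were left out for their mitochondrial share, but they also hold the lowest glycolytic shares, so leaving them out raises the sgNlrc5 values of glycolytic genes by construction. Bnip3l (-0.88), Car12 (-1.39), Aldoc (-0.50), Ddit4 (-0.48) and Plod2 (-0.38) were still lower, and P4ha1 (0.45) and Pfkfb3 (0.62) higher. Vegfa (0.59, adjusted p = 0.037), Adm (1.00, 0.0034), Pfkp (0.35, 0.012) and Hk1 (0.30, 0.039) then passed as higher. Vegfa also passed without sgNlrc5 replicate 1 alone (0.61, adjusted p = 0.012). The other HIF targets took 0.237%, 0.336%, 0.323% and 0.357% of reads in sgNlrc5 replicates 1 to 4, against 0.328% to 0.393% in sgScramble tumours. Replicate 1 was thus lowest here too, so leaving it out raises the sgNlrc5 values of these targets by construction as well. The new calls of Vegfa, Adm, Pfkp and Hk1 are therefore no independent evidence. The calls of Hk2, Hif1a, Tpi1, Mxi1 and Kdm3a ended (adjusted p from 0.065 to 0.17). Whether the mitochondrial share bears on these genes was not tested.

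Host cells differed between the tumours too. All 8 T cell markers were higher with sgNlrc5 and summed to 290.2 to 1191 normalised counts in sgNlrc5 tumours, against 51.6 to 81.5 in sgScramble tumours. All 7 macrophage markers were higher and summed to 11081 to 14324, against 2946 to 4289. Of the melanocyte markers, 3 of 8 were higher and 1 lower. Of 5 tested fibroblast markers 2 were higher and 1 lower, and 0 of 3 tested endothelial markers passed by limma (0 of the 3 at an unadjusted p under 0.05 also). The part of these cells in the values above was not tested. In bulk RNA from a tumour, fewer cells of a type and less RNA per cell cannot be told apart.

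**Figure D3:**
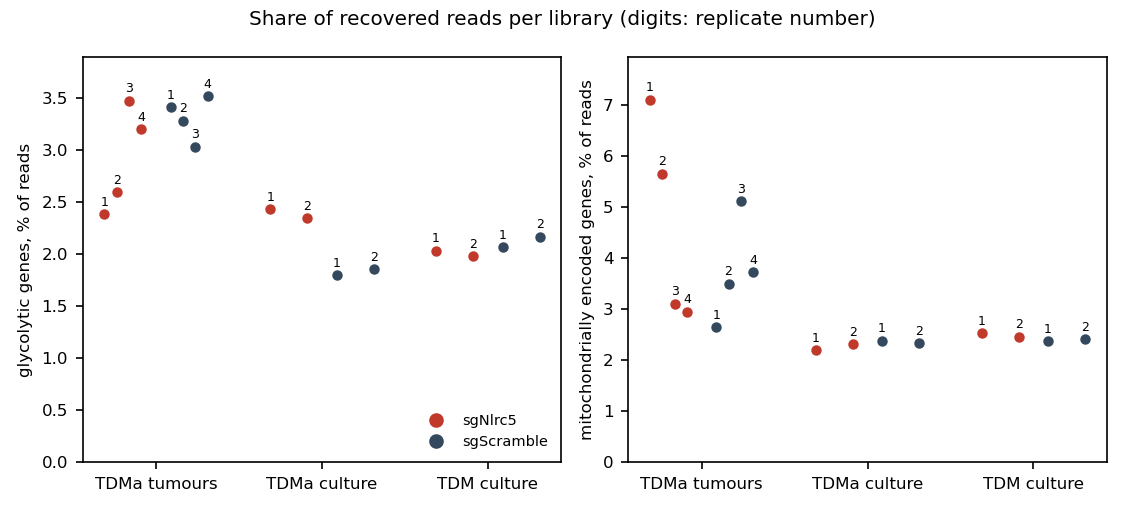
Percent of recovered reads in each library (digits give the replicate number) from the 16 glycolytic genes (left) and from mitochondrially encoded genes (right), for sgNlrc5 (red) and sgScramble (dark). sgNlrc5 tumours 1 and 2 hold the lowest glycolytic shares of the tumours, 2.39% and 2.60%, and the highest mitochondrial shares, 7.11% and 5.66%.

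The guide effects themselves were then compared between settings by an interaction term in limma, taken over differences within each table because the tables had been normalised separately. Between TDMa culture and TDM culture, 27 of 34 genes had a higher guide effect in TDMa and 1 a lower one, where 12% of all genes tested were higher and 10.8% lower (22.7% in either direction). The median difference was 0.67, against 0.00048 over all genes tested. Bnip3 differed most, by 2.07 ± 0.17 (adjusted p = 8.4e-10), with an effect of 1.45 in TDMa and -0.63 in TDM. Pdk1 differed by 1.71 ± 0.096 (1.47 in TDMa and -0.24 in TDM), Aldoc by 1.58 ± 0.14 and Ero1a by 1.33 ± 0.12. Epas1 was the gene with a lower effect in TDMa (-0.61 ± 0.16, adjusted p = 0.0075), and this call ended without TDM culture sgScramble replicate 2 (-0.51, adjusted p = 0.061). Egln3 had negative effects in both lines, and their difference was 0.19 ± 0.25 (adjusted p = 0.65).

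Between TDMa tumours and TDMa culture, 22 of 34 genes had a lower guide effect in tumours and 0 a higher one, where 21.6% of all genes tested were lower and 15% higher (36.6% in either direction). The median difference was -0.67, against -0.068 over all genes tested. At an unadjusted p under 0.05, 1 gene was higher (Epas1, 0.45 ± 0.19, adjusted p = 0.078), and 0 were called higher without array weights. Lower effects were found for 11 of 16 glycolytic genes, 9 of 14 other HIF targets, and Hif1a and Egln1. Aldoc differed by -1.90 ± 0.16 (adjusted p = 2.8e-07), with an effect of -0.60 in tumours and 1.30 in culture. Bnip3 differed by -1.75 ± 0.19, Pdk1 by -1.64 ± 0.10 and Bnip3l by -1.46 ± 0.11. Hif1a had -0.34 in tumours and 0.57 in culture, a difference of -0.90 ± 0.10 (adjusted p = 5.2e-06). P4ha1 was the gene that rose in both settings (0.52 in tumours and 0.45 in culture), with a difference of 0.07 ± 0.12 (adjusted p = 0.69). Both sets of differences use the same TDMa culture libraries.

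Taking the 3 comparisons side by side, 14 of the 34 genes tested in all rose in TDMa culture and were called in neither other setting, a pattern of 10.4% of the 11334 genes tested in all 3. A further 8 rose in TDMa culture, fell in tumours and were not called in TDM culture, a pattern of 4.40% of all genes. The 3 that fell in TDM culture rose in TDMa culture and were not called in tumours, as did 10 of the 11334 genes, these 3 included. No gene fell in more than 1 setting. Called in no setting were Ankrd37, P4ha2, Car9, Pfkfb4 and, tested in 2 settings, Adm.

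**Figure D4:**
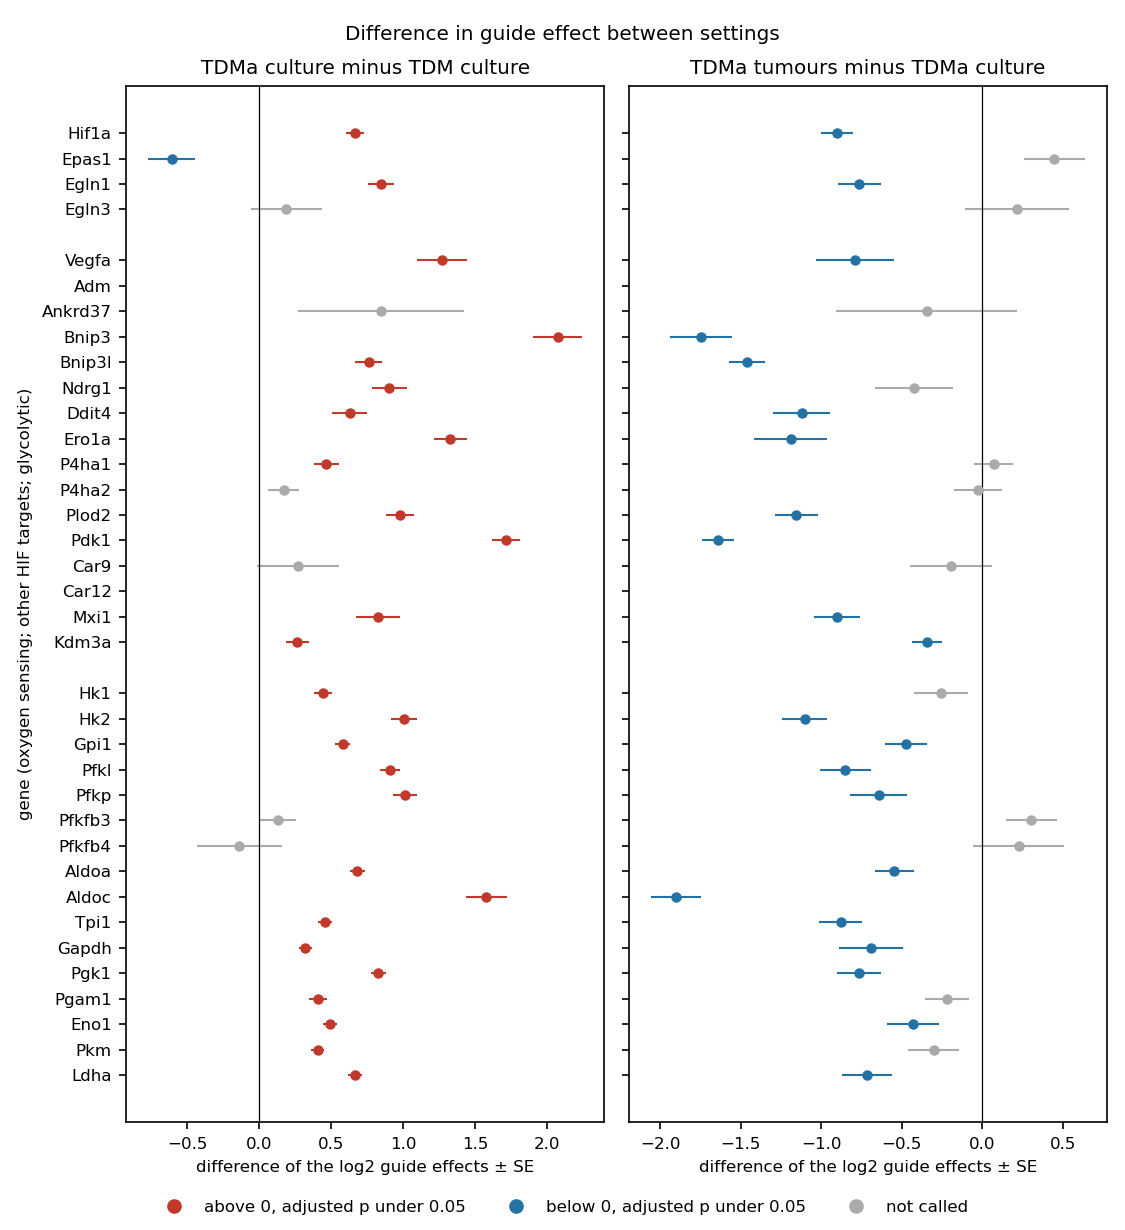
Difference of the log2 guide effects (x axis, with standard error) by gene (y axis), TDMa culture minus TDM culture (left) and TDMa tumours minus TDMa culture (right). On the left 27 genes lie above 0 and Epas1 below it at an adjusted p under 0.05, and on the right 22 lie below 0 and 0 above it.

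Levels were set side by side as RPM, recovered reads scaled to the library total, without a test, since the tables listed different genes and each was normalised alone. With sgScramble, 32 of 35 genes lay above the TDMa culture libraries in every tumour and 2 below, where 24% of all genes lay above and 42.6% below. The median log2 ratio of tumours to culture was 1.20, against -0.15 over all genes. With sgNlrc5, 24 lay above, 1 below and 10 overlapped, where 27.6% of all genes lay above and 42.9% below, and the median log2 ratio was 0.60.

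Car9 had a mean of 449 RPM in sgScramble tumours, against 7.16 in sgScramble TDMa culture. Ero1a averaged 1208 RPM in sgScramble tumours, against 133 in culture, and Vegfa 178, against 16.1. Gapdh averaged 10929 RPM in sgScramble tumours, against 5412 in culture. Adm was wider apart still, at 39.8 and 0.144, but its culture value rests on 1 and 3 reads. The 2 genes below culture in sgScramble tumours were Epas1 and Pfkfb4, and Ndrg1 overlapped.

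The lines were also set side by side in culture, under each guide. With sgScramble, 27 of 35 genes were lower in both TDMa libraries than in both TDM libraries and 6 were higher, where 37.5% of all genes were lower and 34.9% higher. With sgNlrc5, 22 were higher in TDMa and 7 lower, where 33.4% of all genes were higher and 41% lower. Pdk1, for example, averaged 102 RPM in TDMa and 57.7 in TDM with sgNlrc5, and 37.9 in TDMa and 68.6 in TDM with sgScramble. Most of these genes thus had lower sgScramble levels in TDMa than in TDM culture.

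**Figure D5:**
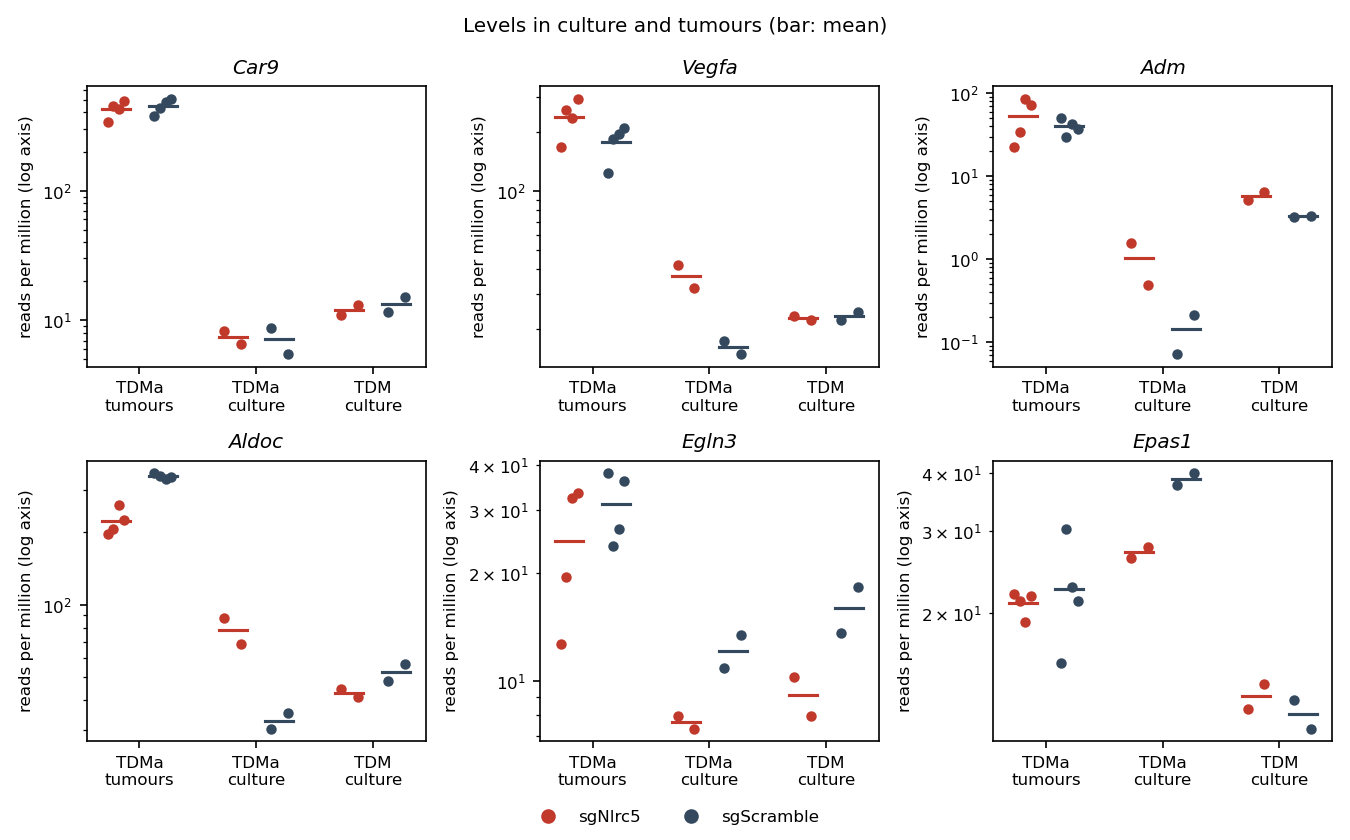
RPM (log axis) of 6 genes in every library of sgNlrc5 (red) and sgScramble (dark), in TDMa tumours, TDMa culture and TDM culture, with bars at group means. Car9, Vegfa, Adm and Aldoc lie far higher in tumours than in culture under either guide, and Epas1 is highest in TDMa culture with sgScramble.

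Levels can be compared between genes only per length, here as RPKM, the RPM per kilobase of exon, with exon lengths from GENCODE on the GRCm38 build. Over the libraries of tumours, TDMa culture and TDM culture in turn, Hif1a ran from 60.0 to 92.4, 28.5 to 41.8 and 30.6 to 33.2 RPKM. Epas1 ran from 2.80 to 5.42, 4.70 to 7.15 and 2.01 to 2.51, so Hif1a was the more abundant alpha subunit in every library. Aldoa, at 914 to 1079.8, 438 to 664 and 517 to 583 RPKM, exceeded Aldoc, at 60.3 to 108, 9.31 to 27.0 and 12.6 to 17.4. The minor aldolase thus had the larger log2 change in TDMa culture and in tumours. Hk1 ran from 37.2 to 66.1, 39.2 to 48.2 and 24.1 to 28.2 RPKM and Hk2 from 34.3 to 54.6, 13.1 to 24.5 and 20.8 to 25.2, with overlapping ranges in tumours and in TDM culture.

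Other genes of the same biology were counted from fixed lists. Of 24 further hypoxia-induced genes tested in TDMa culture, 18 rose and 1 fell. Bhlhe40 and Bhlhe41, circadian and hypoxia-responsive repressors, rose by 1.26 ± 0.093 and 1.11 ± 0.068, the nuclear receptor gene Rora by 1.15 ± 0.13 and Fam162a by 0.90 ± 0.059, while Narf fell (-0.18 ± 0.062). In TDMa culture 17.3% of all genes tested rose and 16.9% fell, and in tumours 19.7% rose and 19.7% fell. In tumours 4 of the 32 tested rose and 6 fell, together a smaller share than the 39.4% of all genes called. Lox, a lysyl oxidase (1.69 ± 0.45), the lactate exporter gene Slc16a3 (1.55 ± 0.26), the chemokine receptor gene Cxcr4 (1.44 ± 0.45) and Wsb1 (0.71 ± 0.12) rose. Loxl2 (-1.79 ± 0.35), the glucose transporter gene Slc2a3 (-0.77 ± 0.15), Zfp395 (-0.71 ± 0.14) and Sap30 (-0.64 ± 0.12) fell most. In TDM culture 0 of 24 were called by limma. At an unadjusted p under 0.05, 9 were lower and 0 higher, where 4.65% of all genes tested were lower and 4.40% higher.

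Among 6 other oxygen sensing genes tested in TDMa culture, Arnt, the HIF partner, rose (0.28 ± 0.057), and Cited2, a competitor of HIF for its coactivators, and Egln2 fell (-1.05 ± 0.055 and -0.23 ± 0.068). Over all genes tested there, 17.3% rose and 16.9% fell. In tumours Hif3a averaged 23.5 ± 7.70 normalised counts with sgNlrc5 and 1.92 ± 2.59 with sgScramble (SD, n = 4 each), a log2 fold change of 3.37 ± 0.60 that depends on the pseudocount at counts this low, and was the 1 of 6 called. Of 13 other glycolysis genes tested in TDMa culture, the lactate and pyruvate transporter gene Slc16a1 (0.56) and Ldhb (0.23) rose, and Pgam2 (-1.19), Bpgm (-0.54) and Tigar (-0.18) fell. These 2 higher and 3 lower genes are near the shares over all genes. In tumours 6 of 15 rose, led by Hk3, a hexokinase of blood cells (2.05 ± 0.30), Pgam2 (1.88 ± 0.32), Pfkfb2 (0.59) and Adpgk (0.50), and Ldhb fell (-0.28). Over all genes tested in tumours, 19.7% rose and 19.7% fell.

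Genes of the pyruvate dehydrogenase complex and the tricarboxylic acid cycle rose in 10 of 25 and fell in 4 in TDMa culture, beside 17.3% and 16.9% of all genes tested. The largest rises were in Pdp2 (0.41), Pdk3 (0.38) and Idh3a (0.31), and the falls in Pdk2 (-0.68), Suclg1 (-0.15), Idh3b (-0.15) and Ogdh (-0.09). In tumours Dlst rose (0.24) and 7 of 25 fell, with Pdp2 (-0.51), Sucla2 (-0.51), Pdhb (-0.36) and Suclg1 (-0.34) lowest, and these 8 of 25 are again a smaller share than 39.4%. The pentose phosphate pathway had Tkt (0.47) and Rpe (0.17) higher and G6pdx (-0.16) lower of 7 in TDMa culture. In tumours 4 of 7 fell, namely Tkt (-0.59 ± 0.10), G6pdx (-0.42), Rpe (-0.34) and Rpia (-0.28), where 19.7% of all genes tested fell. No gene of the last 4 lists (6, 13, 25 and 7 tested) was called in TDM culture by limma. At an unadjusted p under 0.05, 3 were lower and 0 higher, where 4.65% of all genes tested were lower and 4.40% higher.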

How the data were processed

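RNA of 16 B16F10 libraries was sequenced after preparation with a directional NEBNext kit, per the labels' protocols. The authors deposited 3 tables of log2 values, 1 per setting. Per the submitters' processing notes, which give no roles, the tools named are DESeq2 1.36.0, STAR 2.7.10a and FastQC 0.12.0, with mm39 and GRCm39 as builds. The sources used here name no counting tool, annotation or strand setting. From the values, each deposited log2 entry equals log2(count / size factor + 1). Whole reads were recovered for 100% of the values up to 2000 multiples of 1 read, within 0.1.

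Each table was fitted alone with limma 3.58.1 in R 4.3.3, with an intensity trend, on genes whose normalised counts averaged 10 or more, and p-values were adjusted over all genes tested (Benjamini-Hochberg, threshold 0.05). The pseudocount of 1 understates changes of low genes. Differences in guide effect were interaction terms fitted over 2 tables at a time with array weights by table. The pipeline was tested on simulated data. Replicate numbers were not used to pair libraries. The members, the lists and the tests were chosen with earlier results of these data known. Named with every library's values were Nlrc5 and the called members, up to the 12 smallest p per comparison; other lists give counts and up to 4 called genes per direction. Alternatives changed the trend, filter, pseudocount, scaling, test, block and libraries. Recovered reads per library, given with the results, limit precision by counting error only.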

Additional observations from a re-analysis of the deposited data

Results flagged for a closer look

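Among 72 groups of 4 tumour libraries, 1 per gene and guide, 3 held a library whose Dixon ratio exceeded the 95% critical value. The ratio is the gap from the nearest other library divided by the range of the group, on the log2 scale. This number is near the 1 in 20 groups that chance flags. All 3 of these libraries were sgScramble tumours: 1655 normalised counts of Ndrg1, 2203 of Kdm3a and 466 of Pfkfb3.

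The guide effect differed between settings, by the interaction term of limma at an adjusted p under 0.05, for the following genes, with the difference on the log2 scale in brackets. For TDMa culture minus TDM culture, the oxygen sensing genes were Egln1 (0.84), Hif1a (0.67) and Epas1 (-0.61). The other HIF targets were Bnip3 (2.07), Pdk1 (1.71), Ero1a (1.33), Vegfa (1.27), Plod2 (0.98), Ndrg1 (0.90), Mxi1 (0.82), Bnip3l (0.76), Ddit4 (0.63), P4ha1 (0.46) and Kdm3a (0.26). The glycolytic genes were Aldoc (1.58), Pfkp (1.01), Hk2 (1.01), Pfkl (0.91), Pgk1 (0.83), Aldoa (0.68), Ldha (0.67), Gpi1 (0.58), Eno1 (0.49), Tpi1 (0.46), Hk1 (0.44), Pkm (0.41), Pgam1 (0.41) and Gapdh (0.32). Epas1 was the 1 negative difference among the 28.

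For TDMa tumours minus TDMa culture, the oxygen sensing genes were Hif1a (-0.90) and Egln1 (-0.76). The other HIF targets were Bnip3 (-1.75), Pdk1 (-1.64), Bnip3l (-1.46), Ero1a (-1.19), Plod2 (-1.15), Ddit4 (-1.12), Mxi1 (-0.90), Vegfa (-0.79) and Kdm3a (-0.34). The glycolytic genes were Aldoc (-1.90), Hk2 (-1.10), Tpi1 (-0.88), Pfkl (-0.85), Pgk1 (-0.77), Ldha (-0.72), Gapdh (-0.69), Pfkp (-0.65), Aldoa (-0.55), Gpi1 (-0.47) and Eno1 (-0.43). All 22 were negative. Eno1 lost its call in most alternatives, and without array weights 17 of the 22 passed.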

How the results depend on the processing

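Of 2457 values recomputed for single genes and differences under the alternatives, 2356 kept their side of the threshold, 74 lost the call and 27 gained one. A change of direction was counted only where either fit called the gene, and 0 were found. Uncalled values could change sign and still count as kept. Egln3 in tumours, for example, went from -0.39 to 0.10 without sgNlrc5 replicates 1 and 2. Genes that kept their call, or lack of one, under every alternative numbered 25 of 36 in TDMa tumours, 26 of 34 in TDMa culture, 26 of 35 in TDM culture, 27 of 34 for TDMa culture against TDM culture and 26 of 34 for tumours against culture. Without the intensity trend the lower count was 1 in TDMa culture (2 as reported) and 0 in TDM culture (3 as reported), and 1 gene was higher in tumours (2 as reported). TDM culture had 5 lower at a mean of at least 50 and 5 with equal sums. Without sgNlrc5 replicates 1 and 2, chosen after seeing the data, tumours had 6 higher and 5 lower (2 and 10 as reported). Leaving out 1 library at a time gave 1 to 3 higher and 7 to 10 lower in tumours, 26 higher and 1 to 2 lower in TDMa culture, and 0 to 1 higher and 1 to 7 lower in TDM culture. Differences ranged over 26 to 28 higher and 0 to 1 lower for TDMa culture against TDM culture, and 0 to 1 higher and 20 to 22 lower for tumours against culture. Over all genes, the calls in TDMa culture were 1581 without the trend against 4156, and in TDM culture 2 without it, 122 with the block, 130 without sgNlrc5 replicate 2 and 102 without sgScramble replicate 1, against 62. The difference between lines was called for 1186 genes without the trend against 2610, and that between tumours and culture for 2799 without array weights against 4311. In these cases the cause was not tested.

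Same-numbered libraries did not deviate together (correlations of deviations from -0.21 to 0.11 over tumours, -0.015 in TDMa culture and -0.024 in TDM culture). With so few libraries this cannot tell whether they shared a culture, animal, day or batch. With the replicate block 7 genes were lower in TDM culture, where Hk2, Ndrg1, Bnip3l and Egln3 joined the 3 reported, and 3 were higher and 8 lower in tumours. Without array weights 17 genes had a lower guide effect in tumours than in culture, against 22. Car12 in TDM culture and Adm in TDMa culture lie under the minimum of 10 and rest on few reads. With no minimum Adm was called higher (adjusted p = 0.021) and Car12 was not (adjusted p = 0.071). Without sgScramble replicate 1 or 2, Car12 passed the minimum only through the sgNlrc5 libraries. The 2 libraries per guide in culture limit precision.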
